A study of Mus musculus with 8 samples.

Results

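The genes described here are 37 mouse genes out of 32285 counted. They encode hydrolases and membrane proteins of the lysosome, some subunits of its proton pump and 2 transcription factors known for switching such genes on. They were listed by symbol and not by their level, the cathepsins were left out of the list, and all 37 were found, each at 1 locus. They comprise 8 membrane proteins (Lamp1, Lamp2, Cd63, Cd68, Laptm5, Scarb2, Mcoln1 and Cln3), 12 glycosidases and sulfatases, 5 lipid hydrolases or their activators (Psap, Gm2a, Smpd1, Asah1 and Ppt1), the proteases Lgmn and Tpp1 together with progranulin (Grn), 7 subunits of the V-ATPase, and Tfeb and Tfe3. Single CD45+ cells were sequenced from mammary tumors of E0771, a mouse breast cancer line, and of its derivatives E0771-Res1 and E0771-Res2, which were taken from E0771 tumors that came back after paclitaxel and anti-PD-1. All tumors were taken on day 18 after transplantation, 1 tumor per mouse, from 2 parental mice (replicates 1 and 3), 3 E0771-Res1 mice and 3 E0771-Res2 mice. Each resistant line is 1 line from a relapsed tumor, so a difference between lines cannot be told apart from a difference between those particular lines.

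Of 11430 deposited cells, 10605 passed the filter of 500 to 6000 detected genes and under 10% mitochondrial counts, 604 to 2020 per mouse. Deposited totals ran from 5036667 to 18894504 unique molecular identifiers (UMIs, 1 per captured transcript) per mouse, and the median per kept cell was 5589 to 7001 in E0771-Res2 mice and 7631 to 8160 in the others. No cell barcode was shared by any of the 28 pairs of mice. Levels are given as CPM, the UMIs of a gene scaled to a common total of counted UMIs summed over the cells of 1 mouse, and a summed level is the percent of those UMIs that fell on the 37 genes. Changes are log2 fold changes with their standard error from edgeR's quasi-likelihood test on sums per mouse, called at an adjusted p under 0.05 over all genes tested. A background is the share of all genes tested that were called at that adjusted p. Counts of members at an unadjusted p have no such share beside them.

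Lysosomes are acidic compartments in which material taken up by the cell, and worn parts of the cell itself, are broken down. Hydrolases in the lumen cut sugars, lipids and proteins, the V-ATPase pumps protons in to keep the lumen acidic, and glycosylated membrane proteins line its inner face. Macrophages, which take up dying cells, are rich in lysosomes, and TFEB and TFE3 are known to bind the letters CACGTG in front of many lysosomal genes, best within a longer palindrome called the CLEAR element.

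Those letters were common around the RefSeq start sites of these genes. A RefSeq window of GRCm38.p6 from 250 bases before to 50 after the start site was matched for 32 of the 37 genes, and CACGTG, which reads the same on both strands, was in the window of 12 of them (37.5%) against 8.09% of 27025 genes of the genome with such a window. The longer TCACGTGA, which contains CACGTG, was in 5 of the 32 (15.6%) against 1.12% of all genes, and the full CLEAR palindrome, which contains both, was in 1 (Cln3). The 12 genes were Lamp1, Mcoln1, Gla, Glb1, Cln3, Naglu, Sgsh, Gaa, Lgmn, Atp6v0b, Atp6v0d1 and Atp6v1a. They held 19 matches, 13 of them within 75 bases upstream of the start, and Lamp1 alone held 4. Below are 30 bases around 1 match in each of 8 genes, chosen because the first 6 were higher in Gpnmb-positive cells and the last 2 were not, with the motif in capitals.
Cln3: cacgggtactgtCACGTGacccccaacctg
Lamp1: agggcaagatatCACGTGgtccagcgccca
Naglu: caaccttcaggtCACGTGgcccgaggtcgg
Lgmn: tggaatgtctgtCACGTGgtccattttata
Gla: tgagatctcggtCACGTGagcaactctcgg
Atp6v1a: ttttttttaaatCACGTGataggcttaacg
Glb1: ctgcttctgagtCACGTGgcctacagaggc
Atp6v0d1: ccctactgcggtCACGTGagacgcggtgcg
These stretches are at chr7:126583340-126583369 on the minus strand for Cln3, chr8:13159088-13159117 on the plus strand for Lamp1, chr11:101070009-101070038 on the plus strand for Naglu and chr12:102439124-102439153 on the minus strand for Lgmn. The others are at chrX:134601182-134601211 (minus) for Gla, chr16:44139373-44139402 (minus) for Atp6v1a, chr9:114401018-114401047 (plus) for Glb1 and chr8:105566050-105566079 (minus) for Atp6v0d1. The windows follow RefSeq start sites. The motifs shown for Cln3, Naglu, Lgmn and Atp6v1a lie inside the GENCODE span of the gene, which starts further upstream. A match is a run of letters in a window and not a measured binding site.

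The 37 genes took 1.52% ± 0.170 (SD, n = 8 mice) of the counted UMIs of all kept cells. Psap, the precursor of the saposins that help lipid hydrolases reach their substrates, supplied 19.8% of these UMIs on average, the V-ATPase subunit Atp6v0c 13.6%, the asparagine-specific protease Lgmn 9.93%, the endosomal glycoprotein Cd68 7.80% and the transmembrane protein Laptm5 7.73%. Cells were then divided by UMIs of genes outside the list. Myeloid cells were those with at least 10 UMIs of Lyz2 and Cst3 and none of the T, NK and B cell genes used for gating, 5993 cells in all. Within them, 1539 cells had at least 10 UMIs of C1qa, a complement gene of mature macrophages (C1qa-high), and 3180 had at most 1 (C1qa-low). Likewise, 1418 cells had at least 2 UMIs of Gpnmb, a glycoprotein of macrophages that handle debris and lipid (Gpnmb-positive), and 3751 had none (Gpnmb-zero). Of the Gpnmb-positive cells 454 were also C1qa-high, so the divisions share cells and mice.

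Other marker genes were read in both C1qa gates, whose cells the myeloid gate had already selected by Lyz2, Cst3 and the absence of lymphoid gating genes. The summed level of 7 macrophage and monocyte markers was 5751 to 7584 CPM in C1qa-high cells and 5228 to 7532 CPM in C1qa-low cells, while 6 T and NK genes summed to 37.8 to 72.9 CPM and 91.3 to 136 CPM. The ranges of the 7 markers overlapped, so they do not tell the C1qa gates apart. The low T and NK level follows in part from the myeloid gate, which left out cells with such genes. Cells with little C1qa also held more dendritic cell genes (4 genes, 73.0 to 252 CPM against 1.5 to 61.3 CPM), and between Gpnmb-zero and Gpnmb-positive cells those genes were at 69.3 to 220 CPM and 5.31 to 111 CPM. The part of dendritic cells in the differences below was not tested.

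In every mouse the summed level was higher in C1qa-high than in C1qa-low cells, and higher in Gpnmb-positive than in Gpnmb-zero cells. C1qa-high cells gave 1.85% and 1.90% in the parental mice, 1.72%, 1.90% and 1.61% in the E0771-Res1 mice and 2.16%, 1.97% and 2.02% in the E0771-Res2 mice. C1qa-low cells of the same mice gave 1.42% and 1.43%, then 1.3%, 1.40% and 1.33%, then 1.72%, 1.43% and 1.62%. The C1qa-low values of E0771-Res2 replicates 1 and 3 reached into the range of the C1qa-high cells, whose lowest value was that of E0771-Res1 replicate 3, and the ratio within a mouse was 1.3 ± 0.058 (SD, n = 8). Gpnmb-positive cells stood further off, at 1.90% to 2.27% against 1.33% to 1.60% in Gpnmb-zero cells, with a ratio within a mouse of 1.42 ± 0.075 and no overlap.

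**Figure D1:**
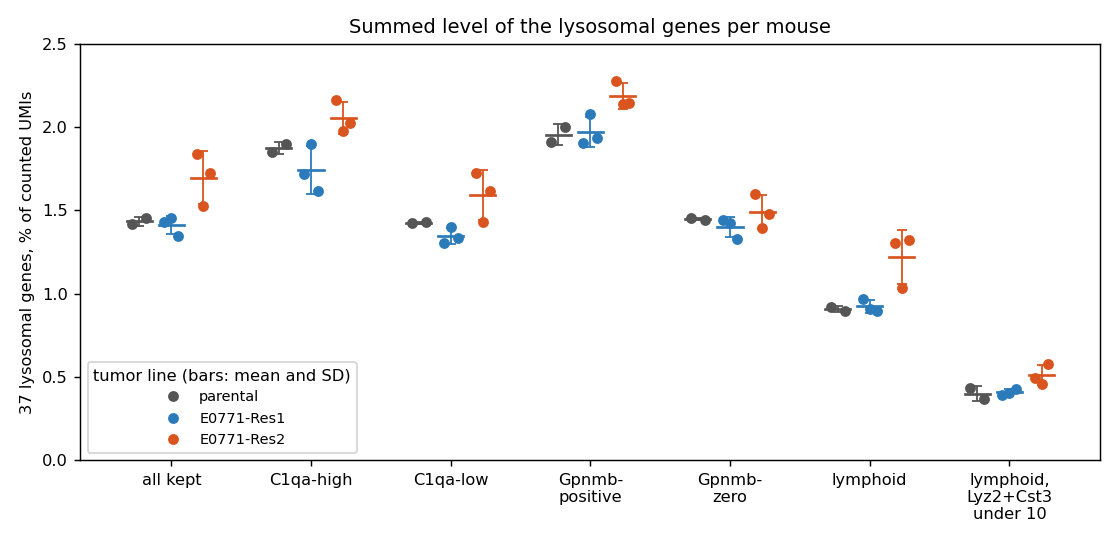
Percent of counted UMIs on the 37 lysosomal genes (y axis) by group of cells (x axis), 1 point per mouse colored by tumor line, with the mean and SD of each line. Gpnmb-positive cells lie at 1.90% to 2.27%, above every Gpnmb-zero value, and lymphoid cells lie below the C1qa-high cells.

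The mean level was higher in each further class of Gpnmb and of C1qa. Cells with 0, 1, 2 to 4 and 5 to 9 Gpnmb UMIs had a mean summed level of 1.45%, 1.57%, 1.83% and 2.10%, and those with 10 to 19 and with 20 or more had 2.29% and 2.74%. Classes with under 10 cells in a mouse were left out, so the classes of 5 to 9 and of 10 to 19 rest on 6 mice each and the last on the 3 E0771-Res2 mice alone. Parental replicate 1 went the other way between the classes of 5 to 9 and 10 to 19, from 2.11% to 1.87%. For C1qa the steps from 0 to 1, 2 to 4 and 5 to 9 UMIs gave 1.46%, 1.51% and 1.74%, and 10 to 19, 20 to 39 and 40 or more gave 1.83%, 1.84% and 1.94%. This order holds for means over mice, since every mouse went down at some step of C1qa. Between 10 to 19 and 20 to 39 UMIs, parental replicate 3 went from 2.09% to 1.81% and E0771-Res1 replicate 3 from 1.71% to 1.46%. Cells with more UMIs of a gene also had more UMIs in all, a median of 9993 to 13519 per mouse at 40 or more C1qa UMIs against 5652 to 7941 at 0 to 1. Dividing by C1qa per 10000 UMIs instead, with the same limits, gave 1.44%, 1.55%, 1.73%, 1.78%, 1.83% and 1.99%.

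C1qa-high cells had more of the protein- and sugar-cutting enzymes and no general rise of the proton pump. Against C1qa-low cells of the same mice, 17 of 37 members rose and 5 fell, at a background of 50% of 8419 genes called, 24.7% higher and 25.3% lower. The median change of the members was 0.16, against 0.02 for all genes. By role, all 3 of Lgmn, Tpp1 and Grn rose, 8 of 12 glycosidases and sulfatases rose and none fell, 2 of 8 membrane proteins rose and 1 fell, 2 of 5 lipid genes rose and 1 fell, and 2 of 7 V-ATPase subunits rose while 2 fell.

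Lgmn, which is itself an activator of other lysosomal proteases (chr12:102394084-102439813, minus strand, GRCm38), was at 2465 and 2676 CPM in C1qa-high cells of parental mice, 2125, 2594 and 1942 CPM in E0771-Res1 and 2885, 2559 and 2822 CPM in E0771-Res2. In C1qa-low cells it was at 997 and 1029 CPM, at 926, 863 and 871 CPM and at 1497, 1074 and 1408 CPM. Every C1qa-high value lay above every C1qa-low value, a change of 1.12 ± 0.05 (adjusted p = 1.88e-13). Grn, a secreted and lysosomal protein cut there into granulins, changed by 0.73 ± 0.04 (adjusted p = 3.41e-13), and Tpp1, a tripeptidyl peptidase, by 0.69 ± 0.07 (adjusted p = 1.48e-08).

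Among the sugar-cutting enzymes, Hexa, the alpha subunit of beta-hexosaminidase, was at 377 and 378 CPM in C1qa-high cells of parental mice and at 351 to 529 CPM in the resistant lines, against 198 and 213 CPM and 172 to 289 CPM in C1qa-low cells. The groups did not overlap, and the change was 0.85 ± 0.05 (adjusted p = 9.55e-14). Naglu and Sgsh are both enzymes of the breakdown of heparan sulfate. Naglu rose by 1.06 ± 0.11 (adjusted p = 1.34e-08) and Sgsh by 1.36 ± 0.26 (adjusted p = 9.32e-05), each in 8 of 8 mice, though Sgsh rested on 117 and 65 UMIs in all. Glb1, the lysosomal beta-galactosidase, changed by 0.84 ± 0.15 (adjusted p = 3.06e-05), on 315 and 236 UMIs, and its locus is shared on the same strand with Tmppe, so part of its count may belong there. Arsb, a sulfatase of dermatan and chondroitin sulfate, had the lowest value of all members and did not pass (-0.43 ± 0.21, adjusted p = 0.089), although it did when cells were divided by C1qa per 10000 UMIs (-0.62, adjusted p = 0.0178).

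The membrane proteins split. Cd63, a tetraspanin of late endosomes, was at 840 to 1398 CPM in C1qa-high and 360 to 791 CPM in C1qa-low cells, without overlap (1.07 ± 0.08, adjusted p = 7.66e-08). Lamp2, a major glycoprotein of the lysosomal membrane, went the other way in 8 of 8 mice. It was at 356 and 370 CPM, 324, 365 and 308 CPM and 366, 356 and 346 CPM in C1qa-high cells against 485 and 500 CPM, 337, 456 and 390 CPM and 417, 401 and 434 CPM in C1qa-low cells, a fall of -0.38 ± 0.05 (adjusted p = 6.08e-07). Its close relative Lamp1 did not pass (0.09 ± 0.05, adjusted p = 0.097), although by plain CPM it was higher in C1qa-high cells in 8 of 8 mice (means 816 and 709 CPM).

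Gm2a, the activator protein that presents the ganglioside GM2 to beta-hexosaminidase, also fell (-0.39 ± 0.07, adjusted p = 1.91e-04), in 7 of 8 mice, while the gene of the enzyme subunit it works with, Hexa, rose. Within the V-ATPase, Atp6v0d2, a d subunit found mainly in macrophages and osteoclasts (chr4:19876841-19922605, minus strand), rose by 1.46 ± 0.25 (adjusted p = 8.75e-05). It was higher in 7 of 8 mice and rested on 215 and 100 UMIs in all. Parental replicate 3 went the other way, with 0 UMIs in C1qa-high and 9 in C1qa-low cells. Atp6v1a, the catalytic subunit, rose by 0.18 ± 0.06 (adjusted p = 0.0178). Atp6v0d1, the d subunit found in most cells (-0.14 ± 0.05, adjusted p = 0.0352), and Atp6v1h (-0.19 ± 0.07, adjusted p = 0.0243) fell slightly. Tfeb fell by 0.30 on the log2 scale (-0.30 ± 0.10, adjusted p = 0.0177), in 5 of 8 mice by CPM, and Tfe3 gave -0.04 ± 0.08 (adjusted p = 0.693).

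The 3 small falls of Atp6v0d1, Atp6v1h and Tfeb were not called by DESeq2 (adjusted p = 0.106, 0.0984 and 0.0839). DESeq2 called 15 members higher and 2 lower. Its share over all genes is not given, so these counts are not shown to be particular to the members. None of the 3 falls held without every mouse. Tfeb was lost without E0771-Res1 replicate 1 (adjusted p = 0.0793) or E0771-Res2 replicate 2 (adjusted p = 0.0647), Atp6v1h without E0771-Res1 replicate 1 (adjusted p = 0.0674), E0771-Res2 replicate 1 (adjusted p = 0.0503) or E0771-Res2 replicate 3 (adjusted p = 0.0621), and Atp6v0d1 without E0771-Res1 replicate 2 (adjusted p = 0.0562), E0771-Res2 replicate 1 (adjusted p = 0.0579) or E0771-Res2 replicate 3 (adjusted p = 0.101). edgeR's scaling lowered the member changes by a median of 0.1 on the log2 scale relative to plain CPM in this comparison.

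In Gpnmb-positive cells most subunits of the proton pump were higher, along with membrane proteins and hydrolases. Against Gpnmb-zero cells, 21 of 37 members rose and 2 fell, at a background of 29.5% of 8581 genes called, 13.8% higher and 15.7% lower. The median change was 0.46 against 0.01 for all genes. By role, 5 of 7 V-ATPase subunits, 5 of 8 membrane proteins, 6 of 12 glycosidases and sulfatases, all 3 of Lgmn, Tpp1 and Grn, 1 of 5 lipid genes and 1 of the 2 transcription factors rose, and 1 sulfatase and 1 lipid gene fell.

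Atp6v0d2 showed the widest difference. Gpnmb-positive cells held 13.0 and 26.6 CPM in parental mice, 22.7, 2.25 and 51.2 CPM in E0771-Res1 and 32.0, 36.3 and 31.8 CPM in E0771-Res2, against 1.79 and 1.77 CPM, 6.72, 1.08 and 1.51 CPM and 1.74, 5.07 and 3.81 CPM in Gpnmb-zero cells. It was higher in 8 of 8 mice and rose by 3.05 ± 0.27 (adjusted p = 6.34e-08), on 287 and 85 UMIs. The low Gpnmb-positive value, in E0771-Res1 replicate 2, was 1 UMI. Among the other pump subunits Atp6v1a rose by 0.72 ± 0.07 (adjusted p = 1.02e-08), Atp6v1b2 by 0.49 ± 0.05 (adjusted p = 9.73e-09), Atp6v0c, a subunit of the proton-carrying ring, by 0.46 ± 0.05 (adjusted p = 4.83e-09) and Atp6v0b by 0.23 ± 0.05 (adjusted p = 0.00101). Atp6v0d1 (-0.0021 ± 0.064, adjusted p = 0.99) and Atp6v1h (0.12 ± 0.08, adjusted p = 0.296) did not pass.

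Psap, at chr10:60277627-60302597, plus strand, was at 4159 and 4055 CPM in Gpnmb-positive cells of parental mice, 4080, 4974 and 4400 CPM in E0771-Res1 and 4861, 4635 and 4833 CPM in E0771-Res2. The Gpnmb-zero cells held 2779 and 2757 CPM, 2473, 2763 and 2560 CPM and 3356, 2944 and 3082 CPM, all lower, and the change was 0.69 ± 0.04 (adjusted p = 1.24e-13). Psap had not passed between the C1qa gates (0.09 ± 0.04, adjusted p = 0.0586), although by plain CPM it was higher in C1qa-high cells in 8 of 8 mice (means 3563 and 3113 CPM). Gla, the alpha-galactosidase whose loss causes Fabry disease, likewise rose with Gpnmb (0.78 ± 0.06, adjusted p = 2.25e-11) and gave -0.04 ± 0.06 (adjusted p = 0.597) between the C1qa gates. Whether a gene's change differed between the C1qa and the Gpnmb division was not tested, because they share cells.

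Cd68 was at 1840 and 1748 CPM, 1702, 1830 and 1393 CPM and 2327, 2326 and 2112 CPM in Gpnmb-positive cells and at 1066 and 1087 CPM, 1024, 1016 and 885 CPM and 1312, 1063 and 1155 CPM in Gpnmb-zero cells. The groups did not overlap, with a change of 0.84 ± 0.05 (adjusted p = 2.46e-14). Cd63 (1.04 ± 0.06, adjusted p = 3.60e-14), Naglu (1.08 ± 0.13, adjusted p = 1.78e-07), Lgmn (0.82 ± 0.05, adjusted p = 1e-12) and Tpp1 (0.80 ± 0.07, adjusted p = 4.62e-10) completed the largest changes. Mcoln1, the calcium channel of the lysosomal membrane, rose by 0.57 ± 0.18 (adjusted p = 0.0156) and Lamp1 by 0.47 ± 0.04 (adjusted p = 8.54e-10), while Lamp2 gave 0.07 ± 0.05 (adjusted p = 0.31).

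Tfeb rose by 0.33 ± 0.10 (adjusted p = 0.0136), in 8 of 8 mice, from 29.5 to 44.6 CPM in Gpnmb-zero cells to 38.2 to 52.9 CPM in Gpnmb-positive cells, ranges that overlapped. Tfe3 did not pass (0.14 ± 0.09, adjusted p = 0.285). Gm2a fell again (-0.22 ± 0.05, adjusted p = 8.84e-04), in 8 of 8 mice, and Glb1 gave -0.22 ± 0.17 (adjusted p = 0.359). Arsb fell (-0.94 ± 0.31, adjusted p = 0.0225) on 35 and 181 UMIs, which was lost in DESeq2 (adjusted p = 0.0984) and without E0771-Res2 replicate 1 (adjusted p = 0.123) or E0771-Res2 replicate 3 (adjusted p = 0.172). With a myeloid gate of at least 50 UMIs of Lyz2 and Cst3, the Tfeb call was lost too (adjusted p = 0.0938).

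**Figure D2:**
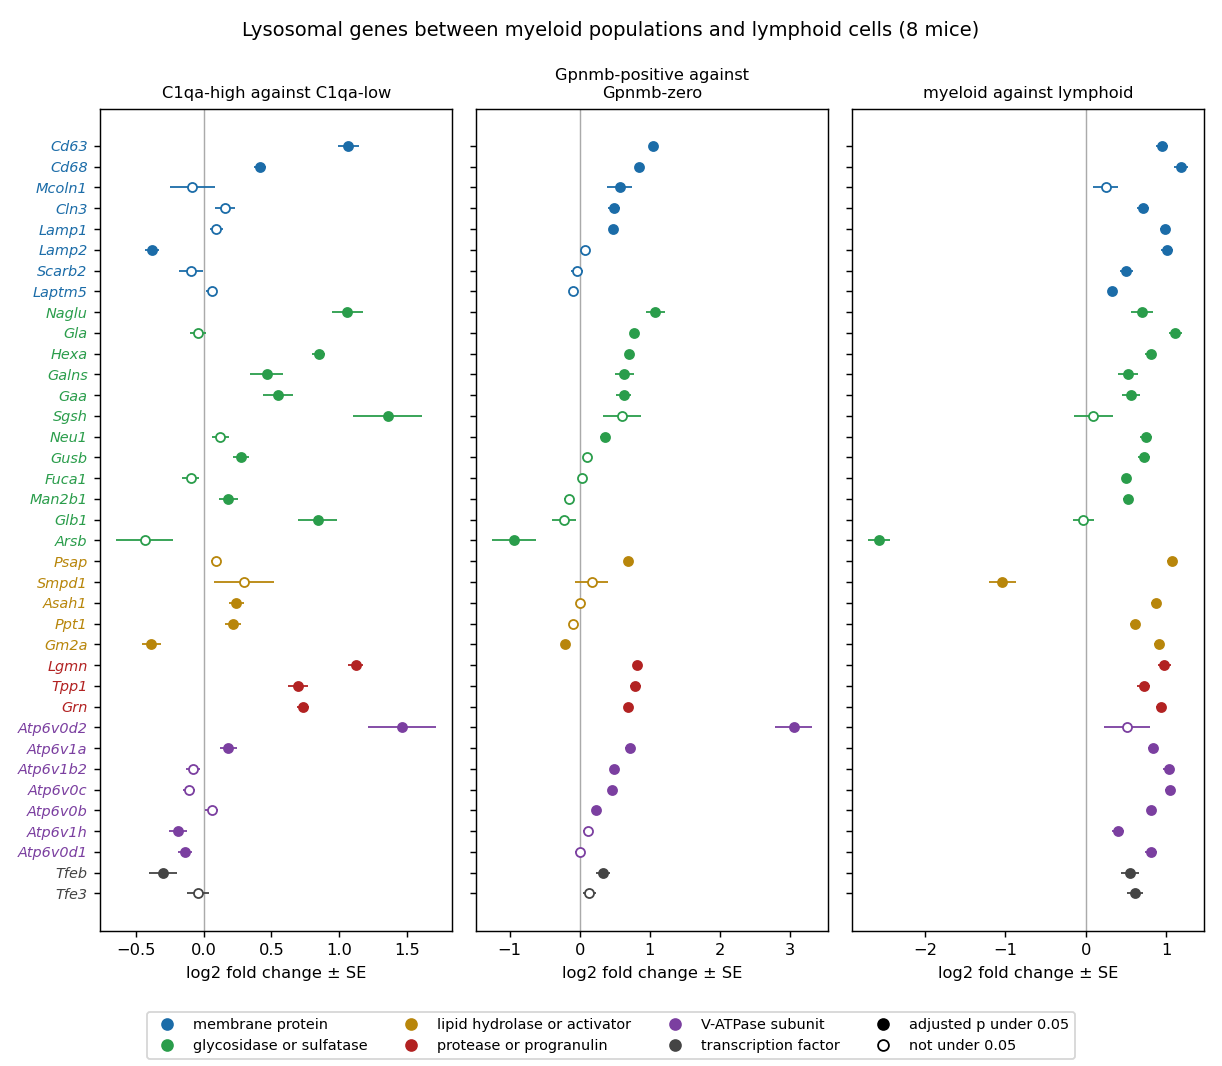
Log2 fold change with its standard error (x axis) of each member, grouped by role (y axis), in 3 panels, C1qa-high against C1qa-low, Gpnmb-positive against Gpnmb-zero and myeloid against lymphoid cells of the same 8 mice, with filled points for members called by edgeR. Psap, Gla, Lamp1 and Atp6v0c are filled in the Gpnmb panel and open in the C1qa panel. Of these, Psap and Lamp1 were by plain CPM higher in C1qa-high cells in 8 of 8 mice. Lamp2 and Hexa sit apart in the C1qa division at -0.38 and 0.85, and Atp6v0d2 is the farthest right in the C1qa and Gpnmb panels, at 1.46 and 3.05.

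The members with CACGTG in their window included 9 of 12 that rose in Gpnmb-positive cells and none that fell, with a median change of 0.58 (range -0.22 to 1.08), against 9 of 20 that rose and 2 that fell among matched members without it, with a median of 0.15 (range -0.94 to 1.04). Between the C1qa gates the same 12 had 6 that rose and 1 that fell with a median of 0.17, and the other 20 had 8 and 3 with a median of 0.11. Between myeloid and lymphoid cells the order of the shares turned, with 9 of 12 that rose (median 0.76) against 18 of 20 that rose and 2 that fell (median 0.72). Of all genes tested, 13.8% were called higher and 15.7% lower between the Gpnmb gates. Between the C1qa gates it was 24.7% and 25.3%, and between myeloid and lymphoid cells 32.1% and 30.3%. No share was taken over all genes with CACGTG, so the split is not shown to be particular to these members. These are descriptions of 2 small sets, and the ranges overlapped throughout.

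Dividing the myeloid cells by both genes at once separated the differences. Cells low in C1qa and without Gpnmb (2191 cells) had the lowest summed level, 1.31% ± 0.047 (SD, n = 8). Cells low in C1qa but Gpnmb-positive (592 cells, at least 25 per mouse) had 1.97% ± 0.193, cells high in C1qa without Gpnmb (837 cells) 1.79% ± 0.166, and cells with both (454 cells, at least 15 per mouse) 2.15% ± 0.148. In each mouse both populations with only 1 of the 2 genes lay above the cells with neither.

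**Figure D3:**
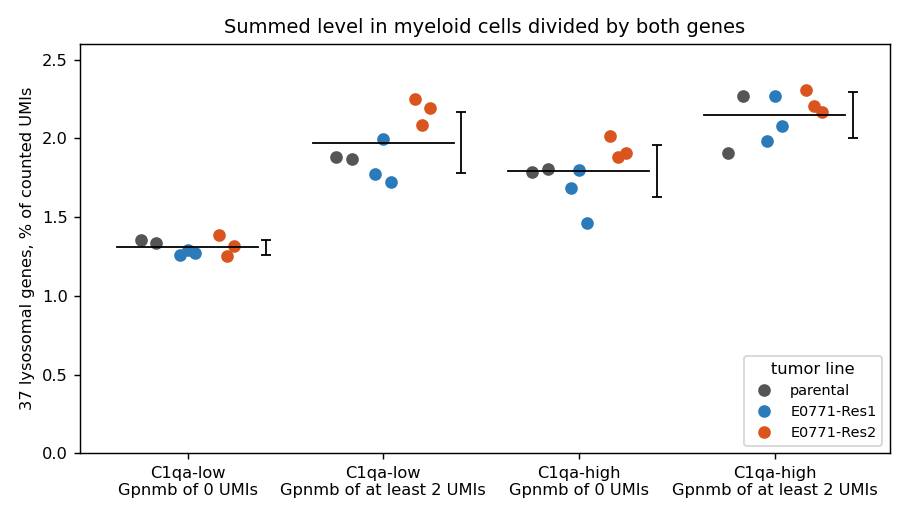
Percent of counted UMIs on the 37 lysosomal genes (y axis) in myeloid cells divided by C1qa and Gpnmb (x axis), 1 point per mouse colored by tumor line, with mean (line) and SD (bar). Cells with neither gene lie at 1.25% to 1.39%, below every mouse of the other 3 populations.

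Single members were compared between these populations by counts of mice, without a test of whether they followed 1 division more than the other. Among C1qa-low cells, 16 of 37 members had more CPM with Gpnmb than without in all 8 mice, against 5 among C1qa-high cells (Lamp1, Cd63, Cd68, Psap and Atp6v1b2), all of them among the 16. Among cells without Gpnmb, 14 members had more CPM with C1qa in all 8 mice, and 8 of these were among the 16. Gla stood at a mean of 125 CPM with neither, 133 with C1qa only, 252 with Gpnmb only and 179 with both. Glb1 was at 12.1 CPM with neither and 12.1 with Gpnmb only but at 27.5 with C1qa only, and at 15.7 with both it was higher than with C1qa only in 0 of 8 mice. Atp6v0d2 was at 1.14 CPM with neither, 5.72 with C1qa only, 20.7 with Gpnmb only and 24.9 with both. Laptm5, an endosomal protein of blood cells, was lower with Gpnmb in 8 of 8 mice among C1qa-low cells (1000 against 1157 CPM), and Lamp2 was lower with C1qa in 8 of 8 mice among cells without Gpnmb (335 against 429 CPM). Counts of mice carry no test here, and the smaller populations have more counting error. The same counts were not made over all genes, so 16, 5 and 14 of 37 are not shown to be particular to these members.

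Lymphoid cells, those with at least 2 UMIs of Cd3d, Cd3e, Cd3g and Ncr1 together, had a summed level of 1.03% ± 0.182 (SD, n = 8) in 1284 cells. Many of them also carried myeloid transcripts, since only 494 had under 10 UMIs of Lyz2 and Cst3, and 8 macrophage genes that T and NK cells should lack stood at 46.9% (Cd14) to 75.0% (C1qc) of their myeloid level. In the 494 cells the summed level was 0.443% ± 0.066, those 8 genes were at 7.30% (Cd14) to 13.6% (Apoe) of their myeloid level, and 6 T and NK genes rose from 2034 to 2884 CPM to 4114 to 5732 CPM. The median depth was 4204 to 6945 UMIs per mouse in these cells. The 494 cells, a set chosen after the values were seen, are therefore used beside the full gate.

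Against the 494 cells, 34 of 35 members tested differed, 32 of them higher in myeloid cells, at a background of 63.8% of 8447 genes called, 32.4% higher and 31.4% lower. Against the full lymphoid gate it was 33 of 37, 31 higher and 2 lower, at a background of 62.4%, 32.1% higher and 30.3% lower. Cd68 led both (3.70 ± 0.11, adjusted p = 9.24e-23, and 1.19 ± 0.09, adjusted p = 7.67e-08), and in the full gate Gla (1.12 ± 0.08), Psap (1.07 ± 0.06), Atp6v0c (1.05 ± 0.06), Atp6v1b2 (1.03 ± 0.07) and Lamp2 (1.01 ± 0.08) followed, while Tfeb gave 0.55 ± 0.11 and Tfe3 0.61 ± 0.10, all called. Glb1 (-0.03 ± 0.13, adjusted p = 0.913), Sgsh, Mcoln1 and Atp6v0d2 were not called in the full gate. These calls rest on edgeR's scaling, which raised the member changes in the full gate. The plain CPM log2 ratio minus edgeR's change had a median of -0.25. By plain CPM, Glb1 was lower in myeloid cells in 7 mice and higher in 1 (means 16.44 and 21.25 CPM). Laptm5 was higher in myeloid cells in 6 mice and lower in 2 (means 1177 and 1116 CPM). No such shift is given for the 494 cells.

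How the members stood against these macrophage genes depended on the gate. In the full lymphoid gate the members were at a median of 70.1% of their myeloid level and the 8 macrophage genes at a median of 67.0%, and 15 of 37 members had a mean above the highest macrophage gene, 3 of them in every mouse. In the 494 cells the members' mean level was a median of 41.9% of the myeloid level. For 34 of 37 it was above the highest of the 8 macrophage genes (13.6%), and for 16 of 37 in every mouse. The exceptions were Cd68 at 9.69%, Lgmn at 12.6% and Cd63 at 13.3% of the myeloid level, within the range of the macrophage genes, which is read as background. Of the 34, Atp6v0d2, Sgsh and Mcoln1 rested on only 6, 7 and 18 lymphoid UMIs, with 0 in some mice. No share over all genes is given. Laptm5 was close to its myeloid level (89.3% ± 13.0), and Fuca1, a fucosidase, was at 68.9%.

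A pair of members was called higher in lymphoid cells. Glb1, not called in the full gate, also had a mean above its myeloid level, at 108% in the 494 cells and 130% in the full gate. Sgsh had a mean of 112% in the full gate, on 61 UMIs. Arsb (chr13:93771630-93943016, plus strand) was at 49.2 and 157 CPM in the 494 cells of parental mice, 78.5, 107 and 68.5 CPM in E0771-Res1 and 123, 76.9 and 62.1 CPM in E0771-Res2, on 196 UMIs in all. In myeloid cells it was at 5.39 and 6.04 CPM, 7.78, 4.59 and 8.47 CPM and 5.89, 7.25 and 5.76 CPM. The lowest lymphoid value was well above the highest myeloid value, and the change from lymphoid to myeloid cells was -3.33 ± 0.19 (adjusted p = 2.76e-16). Smpd1, the acid sphingomyelinase, was lower in myeloid cells by -1.36 ± 0.28 (adjusted p = 8.12e-05) on 56 lymphoid UMIs and in 7 of 8 mice. Against the full lymphoid gate the changes were -2.57 ± 0.14 (adjusted p = 1.65e-14) and -1.04 ± 0.17 (adjusted p = 5.99e-06).

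**Figure D4:**
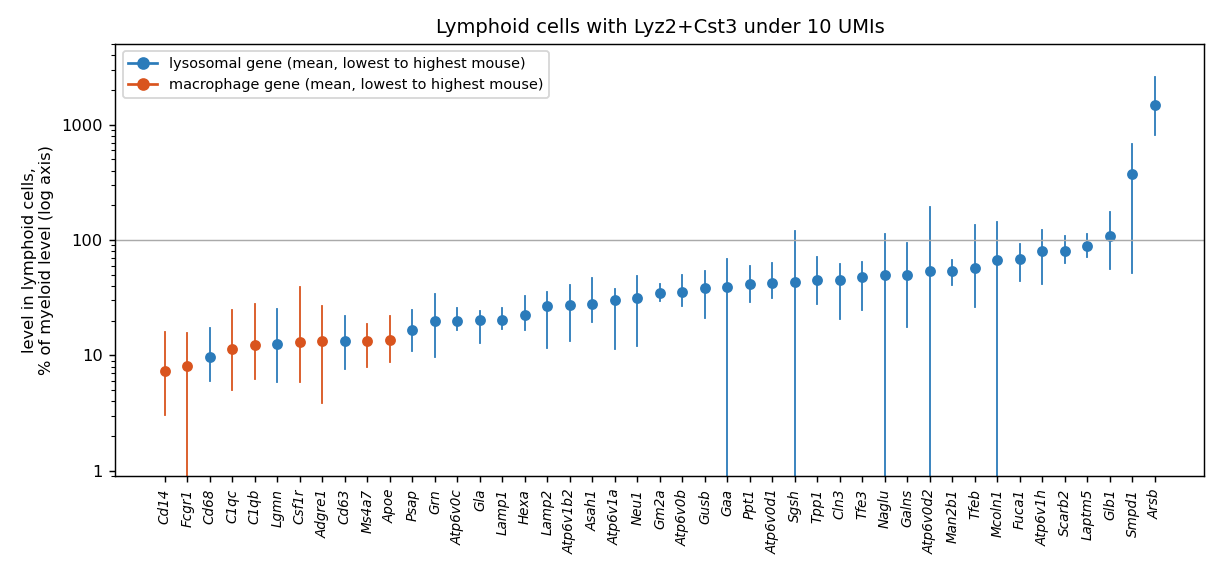
Level in lymphoid cells with under 10 UMIs of Lyz2 and Cst3 as percent of the level in myeloid cells of the same mouse (log axis), for the 37 members and 8 macrophage genes, with the mean as a point and the range over 8 mice as a line (a line that reaches the edge includes a mouse with 0 UMIs). Cd68, Lgmn and Cd63 lie among the macrophage genes at 9.69% to 13.3%. The means of Arsb, Smpd1 and Glb1 lie above 100%, that of Glb1 at 108%.

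Between tumor lines, the members called were those of the comparisons with E0771-Res2. In all kept cells, E0771-Res1 had no member called against parental by edgeR or DESeq2, at a background of 0.0441%, 0.0265% higher and 0.0177% lower. At an unadjusted p under 0.05 there were 5, without a share of all genes. The smallest adjusted p were those of Atp6v0d2 (1.02 ± 0.26, adjusted p = 0.18) and Ppt1 (-0.21 ± 0.08, adjusted p = 0.369). E0771-Res2 had 6 members higher than parental and none lower, at a background of 4.57%, 2.16% higher and 2.41% lower. Against E0771-Res1 it had 9 higher and none lower, at a background of 4.46%, 2.65% higher and 1.81% lower. Both comparisons share the E0771-Res2 mice.

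The genes higher than parental were Atp6v0d2 (1.95 ± 0.24, adjusted p = 6.23e-04), Naglu (0.82 ± 0.16, adjusted p = 0.0119), Cd63 (0.65 ± 0.15, adjusted p = 0.0369), Cd68 (0.47 ± 0.12, adjusted p = 0.0327), Grn (0.46 ± 0.12, adjusted p = 0.0437) and Cln3, a membrane protein of lysosomes that is lost in juvenile Batten disease (0.41 ± 0.10, adjusted p = 0.0323). Cd68 was at 1041 and 1092 CPM in parental mice, 1021, 1085 and 894 CPM in E0771-Res1 and 1663, 1301 and 1499 CPM in E0771-Res2. All 3 E0771-Res2 mice lay above all other mice, and replicate 2 was the nearest to them. Grn was at 912 and 1042 CPM, 1026, 942 and 854 CPM and 1425, 1152 and 1463 CPM, again with the 3 E0771-Res2 mice on top. Atp6v0d2 was at 3.41 and 4.73 CPM, 7.99, 5.88 and 9.54 CPM and 13.9, 14.3 and 17.2 CPM, so that its 3 lines did not overlap.

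Those higher than E0771-Res1 were Sgsh (1.11 ± 0.20, adjusted p = 0.0073), Atp6v0d2 (0.93 ± 0.17, adjusted p = 0.00794), the alpha-glucosidase Gaa (0.64 ± 0.12, adjusted p = 0.00819), Cd68 (0.56 ± 0.10, adjusted p = 0.0073), Grn (0.51 ± 0.11, adjusted p = 0.0144), Lgmn (0.46 ± 0.11, adjusted p = 0.0344), Psap (0.40 ± 0.09, adjusted p = 0.0294), Cln3 (0.38 ± 0.09, adjusted p = 0.0238) and Tfeb (0.38 ± 0.10, adjusted p = 0.0407). Sgsh was at 4.42 and 5.47 CPM in parental mice, 4.10, 3.53 and 3.88 CPM in E0771-Res1 and 10.1, 7.10 and 7.84 CPM in E0771-Res2, the last above all others. Tfeb was at 37.5 and 36.3 CPM, 34.5, 30.1 and 34.0 CPM and 44.1, 39.1 and 45.9 CPM, and its call was lost in DESeq2 (adjusted p = 0.088) and without any 1 mouse other than E0771-Res2 replicate 2 (adjusted p from 0.0534 to 0.206). Not all members followed. Gm2a was lowest in the E0771-Res2 mice (479 to 493 CPM against 535 to 601 CPM in the others) and did not pass (-0.18 ± 0.08, adjusted p = 0.236, and -0.25 ± 0.07, adjusted p = 0.0702).

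The makeup of the cells moved with the line. In sums over all kept cells, fewer cells of a type and less RNA per cell cannot be told apart. Gpnmb-positive cells were 35.1% ± 8.22 (SD, n = 3) of the myeloid cells in E0771-Res2 tumors, 13.1% ± 2.86 in E0771-Res1 and 11.2% ± 4.01 (n = 2) in parental tumors, and C1qa-high cells 25.7% ± 3.49, 25.0% ± 7.35 and 19.9% ± 1.5. The 6 T and NK genes summed to 502 to 572 CPM in parental, 420 to 496 CPM in E0771-Res1 and 339 to 495 CPM in E0771-Res2 mice. The counts also depended on single mice. Here and below, the share of all genes called without a mouse is not given. Such counts are therefore not shown to be particular to the members. Against parental the 6 became 1 without parental replicate 1 or 3, 2 without E0771-Res2 replicate 1 or 3 and 12 without E0771-Res2 replicate 2. Against E0771-Res1 the 9 became 5 without parental replicate 1 or E0771-Res1 replicate 3, 4 without E0771-Res2 replicate 1, 2 without E0771-Res2 replicate 3 and 14 without E0771-Res2 replicate 2.

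Within C1qa-high cells, E0771-Res2 had 3 of 36 members tested called against parental at a background of 2.59%, 0.926% higher and 1.66% lower, all of them higher. They were Atp6v0d2 (3.01 ± 0.51, adjusted p = 0.00172), Cd63 (0.47 ± 0.12, adjusted p = 0.0366) and Cd68 (0.42 ± 0.11, adjusted p = 0.0433). Against E0771-Res1 it had 4 at a background of 2.97%, 1.64% higher and 1.33% lower, all of them higher: Atp6v0d2 (1.52 ± 0.30, adjusted p = 0.00469), Cd68 (0.58 ± 0.10, adjusted p = 0.00134), Grn (0.44 ± 0.09, adjusted p = 0.00793) and Psap (0.41 ± 0.09, adjusted p = 0.00746). Atp6v0d2 rested on 6 and 0 UMIs in the parental mice, on 40, 8 and 5 UMIs in the E0771-Res1 mice and on 72, 37 and 47 UMIs in the E0771-Res2 mice, and DESeq2 gave no adjusted p for it in either comparison. Cd68 was at 1528 and 1433 CPM, 1323, 1574 and 1144 CPM and 2119, 1941 and 1922 CPM, with the E0771-Res2 mice on top. The makeup of this gate also differed by line. Gpnmb-positive cells were 46.7%, 38.1% and 40.2% of C1qa-high cells in the E0771-Res2 mice and 13.6% to 22.5% in the others.

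The 3 calls against parental became 1 without any 1 of the parental or E0771-Res2 mice, and the 4 against E0771-Res1 became 1 without E0771-Res2 replicate 1 and 2 without E0771-Res2 replicate 3. E0771-Res1 had none called against parental by edgeR or DESeq2, at a background of 0.843%, 0.332% higher and 0.51% lower. At an unadjusted p under 0.05 there were 8, without a share of all genes. The smallest adjusted p were those of Cd63 (0.34 ± 0.12, adjusted p = 0.227) and Glb1 (0.78 ± 0.29, adjusted p = 0.249). Without E0771-Res1 replicate 3, 1 member was called.

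In C1qa-low cells, Gaa was the only member called in E0771-Res2 against parental (0.86 ± 0.20, adjusted p = 0.0208, background 3.32%, with 1.37% higher and 1.95% lower). It was at 18.9 and 17.6 CPM in parental mice, 18.7, 18.9 and 16.0 CPM in E0771-Res1 and 39.0, 30.6 and 31.2 CPM in E0771-Res2, the last well above the rest. Against E0771-Res1, 5 rose and 1 fell at a background of 2.68%, 1.59% higher and 1.09% lower: Sgsh (2.37 ± 0.58, adjusted p = 0.0289), Gaa (0.91 ± 0.18, adjusted p = 0.00623), Lgmn (0.57 ± 0.11, adjusted p = 0.00495), Grn (0.56 ± 0.10, adjusted p = 0.00495) and Cd68 (0.52 ± 0.11, adjusted p = 0.00859) rose, and Gm2a fell (-0.37 ± 0.09, adjusted p = 0.0249). Sgsh rested on 1, 3 and 2 UMIs in the E0771-Res1 mice. Gm2a was at 736, 724 and 678 CPM in E0771-Res1 and at 549, 552 and 564 CPM in E0771-Res2, without overlap, and the parental mice lay between them at 589 and 578 CPM. The gate is a limit on raw UMIs, and its median depth was 5652 to 6730.5 UMIs in E0771-Res2 mice and 7382 to 7941 in the others. In parental, E0771-Res1 and E0771-Res2 mice it held a mean of 65.7, 62.9 and 78.8 CPM of C1qa and 103, 102 and 514 CPM of Gpnmb. The part of these differences in the calls was not tested.

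The call of Gaa against parental was lost without parental replicate 1, parental replicate 3 or E0771-Res2 replicate 1 (0 called), the count became 2 without E0771-Res1 replicate 2 and 5 without E0771-Res2 replicate 2. The 6 against E0771-Res1 became 3 without E0771-Res1 replicate 3 and 2 without E0771-Res2 replicate 1 or 3. E0771-Res1 against parental had none called by edgeR or DESeq2, at a background of 0.27%, 0.0757% higher and 0.195% lower. Nearest were Sgsh (-2.31 ± 0.66, adjusted p = 0.161) and Gm2a (0.28 ± 0.10, adjusted p = 0.299). At an unadjusted p under 0.05 there were 8, without a share of all genes.

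Restricting the gates to cells without Gpnmb, done after the shares above were seen, left fewer calls. Among C1qa-high cells without Gpnmb, edgeR called none of 33 members in E0771-Res2 against parental at a background of 0.969%. Against E0771-Res1 it called 3 at a background of 1.25%, Psap (0.45 ± 0.09, adjusted p = 0.0103), Grn (0.51 ± 0.11, adjusted p = 0.0125) and Cd68 (0.48 ± 0.11, adjusted p = 0.0264). Among C1qa-low cells without Gpnmb it called none against parental (background 1.34%) or against E0771-Res1 (background 0.681%). At an unadjusted p under 0.05 there were 7 in C1qa-high cells against parental. In C1qa-low cells there were 2 against parental and 5 against E0771-Res1, all without a share of all genes. DESeq2 was not run on these restricted cells. The restricted sums hold fewer cells, so a lost call does not show that the lines were alike.

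**Figure D5:**
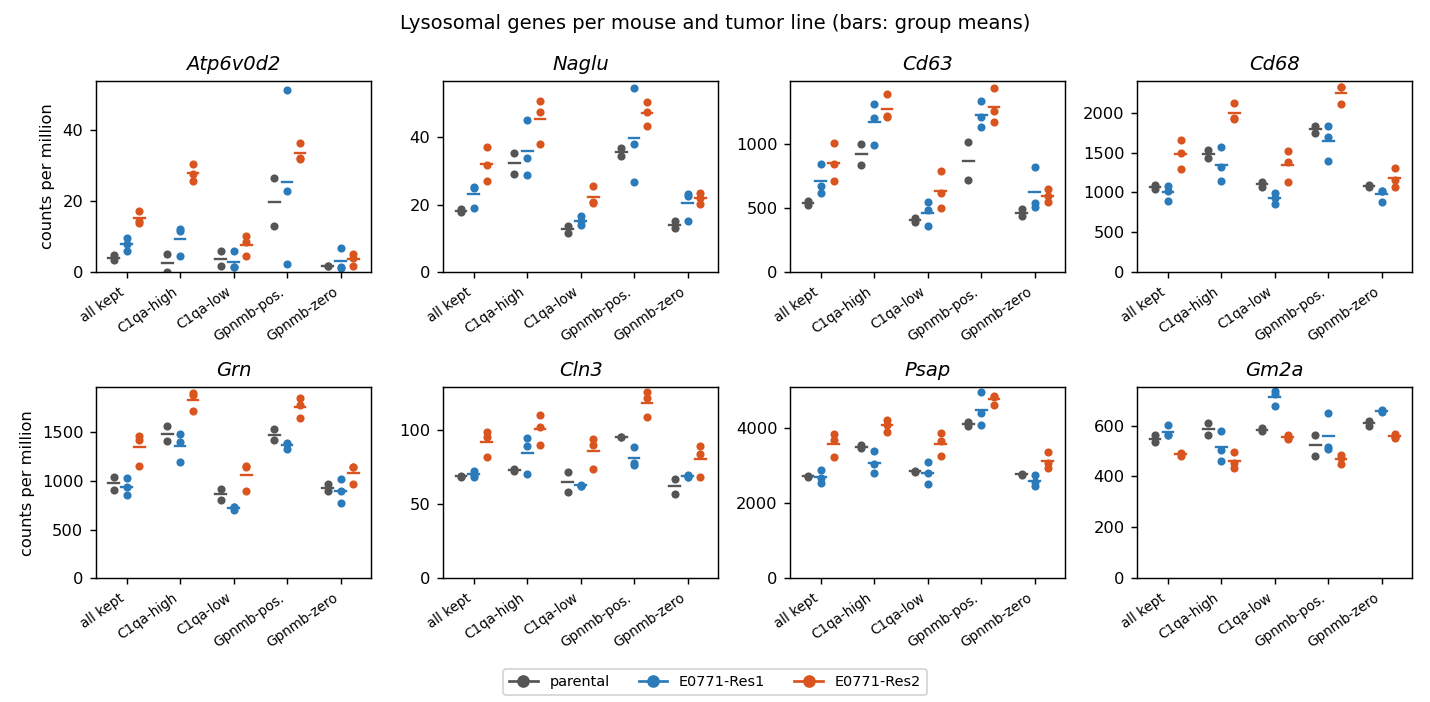
Level (CPM, y axis) of 8 members in all kept cells and in 4 myeloid gates (x axis), 1 point per mouse colored by tumor line, with bars at the group means. In all kept cells all 3 E0771-Res2 mice lie above the other 5 mice for Cd68 (1301 to 1663 CPM against 894 to 1092 CPM) and for Grn (1152 to 1463 CPM against 854 to 1042 CPM).

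The difference between C1qa-high and C1qa-low cells was not itself shown to differ between lines. edgeR called 0 members for each of the 3 line comparisons, at backgrounds of 0.166%, 0.641% and 0.0594%, and DESeq2 called 0 as well. At an unadjusted p under 0.05 there were 4, 4 and 3, without a share of all genes. The smallest adjusted p were those of Gm2a (-0.49 ± 0.13, adjusted p = 0.143) and Man2b1, an alpha-mannosidase (0.56 ± 0.15, adjusted p = 0.168), both for E0771-Res1 against parental, where leaving out E0771-Res1 replicate 3 gave 2 called. For E0771-Res2 they were those of Man2b1 against parental (0.37 ± 0.15, adjusted p = 0.457) and of Lgmn against E0771-Res1 (-0.24 ± 0.11, adjusted p = 0.804).

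In lymphoid cells, Grn (0.70 ± 0.11, adjusted p = 0.00133), Psap (0.67 ± 0.12, adjusted p = 0.00586) and Lamp1 (0.57 ± 0.12, adjusted p = 0.0129) were higher in E0771-Res2 than in parental tumors at a background of 1.05%, 0.746% higher and 0.303% lower. The same 3 genes were higher than in E0771-Res1 (0.68 ± 0.10, adjusted p = 3.99e-04, then 0.59 ± 0.10, adjusted p = 0.00615, and 0.43 ± 0.10, adjusted p = 0.0457) at a background of 0.897%, 0.692% higher and 0.205% lower. Psap was at 1622 and 1452 CPM, 1648, 1622 and 1521 CPM and 2466, 1938 and 2696 CPM. In the 494 cells with few myeloid transcripts edgeR called none of 27 members tested against parental (background 0.223%). DESeq2 was not run, and 7 had an unadjusted p under 0.05, without a share of all genes. Against E0771-Res1 edgeR called 3 (background 0.223%), Psap (0.88 ± 0.17, adjusted p = 0.0221), Cd68 (1.10 ± 0.23, adjusted p = 0.0221) and Cd63 (1.18 ± 0.26, adjusted p = 0.0266), the latter pair at a level read as background above. Psap was at 562 and 328 CPM, 408, 394 and 459 CPM and 683, 656 and 959 CPM. The E0771-Res2 mice were the highest in both. Macrophage genes moved with the line in lymphoid cells. In the 494 cells each of the 8 macrophage genes used above had its highest mean in E0771-Res2. In the full gate Gpnmb was at 67.4 and 76.2 CPM in parental mice, 81.3, 61.6 and 63.2 CPM in E0771-Res1 mice and 547, 131 and 441 CPM in E0771-Res2 mice. In the 494 cells C1qa was at a mean of 163, 153 and 346 CPM in the 3 lines. There Fcgr1 was at 2.99%, 5.52% and 14.0% of its myeloid level and Csf1r at 7.94%, 7.40% and 21.9%. The E0771-Res2 mice spread widely for Csf1r, at 14.6%, 11.6% and 39.4%. Adgre1 was at 8.08%, 9.35% and 20.7% in the 3 lines, Cd14 at 6.18%, 3.84% and 11.5% and C1qc at 11.6%, 6.91% and 15.7%. Apoe (14.0%, 10.4% and 16.6%), Ms4a7 (12.4%, 11.1% and 16.4%) and C1qb (10.9%, 9.41% and 16.2%) moved less. In the full gate Cd14 (34.8%, 44.9% and 56.9%) and Fcgr1 (42.7%, 46.8% and 54.0%) were highest in E0771-Res2. So were Adgre1 (61.4%, 59.0% and 76.1%) and Csf1r (54.4%, 44.1% and 64.0%). Ms4a7 (67.6%, 68.2% and 67.9%), C1qb (61.5%, 79.8% and 71.5%), C1qc (69.9%, 79.5% and 73.9%) and Apoe (80.1%, 61.4% and 74.8%) were not. The 7 macrophage and monocyte markers summed in the 494 cells to 969 and 1055 CPM, 1080, 1783 and 1223 CPM and 1436, 907 and 1204 CPM. The part of myeloid RNA in the difference was not tested. Against parental the 3 calls became 0 without parental replicate 1, 1 without parental replicate 3 and 12 without E0771-Res2 replicate 2, and against E0771-Res1 1 without E0771-Res1 replicate 3 and 13 without E0771-Res2 replicate 2. E0771-Res1 had none called against parental by edgeR or DESeq2 and 0 at an unadjusted p under 0.05 (background 0.0433%, with 0.0216% higher and 0.0216% lower), with Gm2a (0.21 ± 0.12, adjusted p = 0.979) and Laptm5 (0.14 ± 0.09, adjusted p = 0.984) nearest.

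Lysosomal genes outside the 37 were examined from lists of 59 further genes, written with earlier results of these data known. Between the C1qa gates 39 of 57 tested were called, 33 higher and 6 lower, with a median of 0.21, where 50% of all genes were called, 24.7% higher and 25.3% lower. Of the 19 other hydrolases and lumen proteins 14 rose and 2 fell, with Acp5, the tartrate-resistant acid phosphatase, at 1.66 ± 0.16 (adjusted p = 6.39e-05) and the phospholipase Pla2g15 at 1.28 ± 0.09 (adjusted p = 5.57e-12), while Npc2, which carries cholesterol out of the lumen, fell (-0.31 ± 0.04, adjusted p = 6.61e-07). Of 10 cathepsins 8 rose, of 5 Ragulator subunits 4 rose, of 11 other V-ATPase subunits and accessory proteins 5 rose and 1 fell, and of 10 other membrane proteins 2 rose and 2 fell, among them Cd164, a sialomucin (-0.78 ± 0.08, adjusted p = 2.01e-08).

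Between the Gpnmb gates 38 of the 57 were called, 35 higher and 3 lower, with a median of 0.38, where 29.5% of all genes were called, 13.8% higher and 15.7% lower. All 10 cathepsins were called, 9 of them higher, led by Ctsk (3.52 ± 0.18, adjusted p = 2.34e-07) and Ctsd (1.31 ± 0.06, adjusted p = 1.70e-14), while Ctsc fell (-0.36 ± 0.05, adjusted p = 7.78e-06). Lipa, the acid lipase of cholesteryl esters and triglycerides, rose by 1.27 ± 0.07 (adjusted p = 4.98e-13) and the V-ATPase subunit Atp6v1c1 by 1.09 ± 0.08 (adjusted p = 2.99e-11). Of the other factors of the Tfeb family, Mitf rose by 1.01 ± 0.13 (adjusted p = 3.74e-07) and Tfec gave 0.14 ± 0.15 (adjusted p = 0.536).

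In all kept cells, 8 of these 59 genes were called in E0771-Res2 against parental, 6 higher and 2 lower, and 8 against E0771-Res1, 5 higher and 3 lower, where 4.57% and 4.46% of all genes were called. Ctsk (2.32 ± 0.31, adjusted p = 0.0126, and 2.28 ± 0.26, adjusted p = 0.0073) and Ctsb (0.60 ± 0.13, adjusted p = 0.0236, and 0.62 ± 0.12, adjusted p = 0.0102) were higher in both, and Ctsc (-0.53 ± 0.11, adjusted p = 0.0116, and -0.47 ± 0.10, adjusted p = 0.0123) and Cd164 were lower in both. Mitf was higher than in parental tumors (0.88 ± 0.14, adjusted p = 0.00305).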

How the data were processed

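CD45+ cells of mammary tumors were labeled with multiplexing oligonucleotides, pooled and sequenced with the Chromium 3′ v3.1 chemistry. What the authors deposited are raw UMI counts, not normalized, in 1 matrix of genes by cells per mouse. The submitters' processing notes name Cell Ranger, Seurat and mm10. Only cells between 500 and 6000 genes whose mitochondrial share was under 10% entered, after the study's methods, doublets were not removed, and 9 tag features and 8633 genes (mt-, Rpl, Rps and Gm with a number, so that Gm2a stays) were left out of the sums, 19.2% to 21.2% of the UMIs of a mouse.

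The members and lists were chosen with earlier results of these data known. Counts were summed per mouse and gate and tested with edgeR 4.0.16 in R 4.3.3 (TMM, filterByExpr, robust quasi-likelihood test, two-sided, Benjamini-Hochberg over all genes tested), with 1 fit of all 8 mice for tumor lines, mouse as a block for gates and an interaction for their difference. DESeq2 1.42.0 was an alternative. The steps were tested on simulated data. Named in the comparisons of gates are the 6 members with the largest and the 3 with the smallest change, every member that passed against most, Tfeb and Tfe3, and in comparisons of lines every member called or, with none, the 2 with the smallest adjusted p; other genes named were chosen after their values were seen. Replicates of a group, which are separate mice, differed by more than sampling noise (chi-square per degree of freedom 2.54 to 11.7). Another parental mouse was not analysed here. The lymphoid cells with few myeloid transcripts, a wider myeloid gate and the cells without Gpnmb were chosen after seeing the data. Gene positions are those of GENCODE for GRCm38, the assembly of mm10. Reads of genes that overlap on 1 strand, such as Glb1 with Tmppe and Galns with a pseudogene, may be split between them.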

Additional observations from a re-analysis of the deposited data

How the results depend on the processing

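No result turned its direction under any alternative. Of the values of named members, leaving out 1 mouse kept the side of the threshold in 298 cases for gates and in 247 for lines, while 11 and 96 lost the call. Apart from the cells without Gpnmb and the lymphoid cells with few myeloid transcripts, no share of all genes is given for the alternatives below. Counts of members called that moved by over 1.5 times were these. Without the filter on low counts, E0771-Res1 against parental gave 1 in all kept cells, 1 in C1qa-low cells and 1 for the difference between gates, E0771-Res2 against parental gave 3 in C1qa-low and 8 in lymphoid cells, and E0771-Res2 against E0771-Res1 gave 10 in C1qa-low and 10 in lymphoid cells. DESeq2 gave 1 for E0771-Res2 against parental in C1qa-high cells, where it gave no adjusted p for Atp6v0d2, and 5 in lymphoid cells. Gating by rate gave 0 in C1qa-low cells. Cells without Gpnmb gave 0 against parental in C1qa-high and C1qa-low cells and 0 against E0771-Res1 in C1qa-low cells, and lymphoid cells with few myeloid transcripts gave 0 against parental. Leaving out 1 mouse gave 1 to 12 for E0771-Res2 against parental and 2 to 14 against E0771-Res1 in all kept cells, 1 to 3 and 1 to 5 in C1qa-high, 0 to 5 and 2 to 9 in C1qa-low, and 0 to 12 and 1 to 13 in lymphoid cells. It gave 0 to 1 for E0771-Res1 against parental in C1qa-high cells and 0 to 2 for the difference between gates. The counts between gates moved by less than 1.5 times when 1 mouse was left out. They were 17 to 23 for the C1qa gates, 22 to 24 for the Gpnmb gates and 33 to 34 for myeloid against lymphoid cells.

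Replicate numbers were not used to pair the mice in the main fits. The correlation of same-numbered mice was -0.0755 to 0.13 over 7 pairs. Between E0771-Res1 and E0771-Res2 it was 0.0997, 0.0182 and 0.13, against -0.113 to 0.00928 for mice of different numbers. With only 2 parental mice, their values mirror each other. Whether the numbers mark a pairing is not settled by these values. A replicate block gave 1 for E0771-Res2 against parental in C1qa-high, 3 in C1qa-low and 9 in lymphoid cells, and 10 against E0771-Res1 in lymphoid cells, and moved no other count by over 1.5 times.

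The summed level without Psap was 1.22% in all kept, 1.54% in C1qa-high, 1.15% in C1qa-low, 1.60% in Gpnmb-positive, 1.16% in Gpnmb-zero and 0.843% in lymphoid cells. With all genes in the denominator it was 1.22%, 1.53%, 1.19%, 1.71%, 1.16% and 0.774%. Depth limits Sgsh, Smpd1, Atp6v0d2, Mcoln1, Arsb and Glb1 most, the members with the fewest UMIs in all kept cells (405, 598, 690, 798, 920 and 1204).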
